A study of Rattus norvegicus with 6 samples.

Results

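The motile cilia genes described here are the genes of the deposited count table whose symbol belongs to the numbered Cfap, Dnah, Dnai, Rsph or Tekt families, together with Hydin, Ccdc39, Ccdc40, Spag16, Spag17, Ak7 and Tppp3. Foxj1, which the same choice of symbols includes, was not analysed here. The choice used symbols and no measured value, though it was made with earlier results of these data known, and 54 of 22396 genes met it (23 Cfap, 10 Dnah, 2 Dnai, 7 Rsph and 5 Tekt genes and 7 genes by name).

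Transcriptomes of the basal temporal lobe were compared between 3 adult male Sprague-Dawley rats of the SAH + 6-gingerol group and 3 of the SAH + PBS group, with 1 library per rat. In SAH, subarachnoid hemorrhage, blood spreads over the surface of the brain, and all 6 rats carried it, after their own femoral artery blood had been placed in the cisterna magna. The rats received 6-gingerol, a compound of ginger (10 mg/kg), or the vehicle PBS by intraperitoneal injection 1 h after SAH, and tissue was taken at 24 h. In the titles and column names, Control stands for the libraries of rats given 6-gingerol. Groups here follow the agent labelled for each rat, and every direction rests on that label. No sham library was analysed here, so every value sets SAH rats given 6-gingerol against SAH rats given vehicle.

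Ependymal cells line the ventricles of the brain and carry tufts of motile cilia that move cerebrospinal fluid along the wall. The shaft of such a cilium, the axoneme, is built of microtubule doublets around a central pair, and bends when the dynein arms of one doublet walk along its neighbour. Radial spokes and the central pair set the rhythm of the arms, ruler proteins space them along the doublet, and tektins and other proteins lie in the doublet wall. Transcription of these genes is driven by RFX factors, which bind a sequence known as the X-box, and by Foxj1, a forkhead factor. Ependyma is a thin sheet, so a piece of temporal lobe holds few such cells, and the epithelium of the choroid plexus in the ventricle is ciliated as well.

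The start-site regions of the members are shown because these genes share regulators. RefSeq windows of 250 bases before to 50 bases after the start on GRCr8 were found for 45 of the 54 members. Both strands were searched for the RFX half-site GTTGCC, which reads GGCAAC on the other strand. They were also searched for a full X-box (GTNNCCNNGGNNAC, where N is any base, which reads the same on both strands) and for a forkhead site (GTAAACA). The half-site was in 13 of 45 windows (28.9%), against 12.2% of 33469 windows of all genes. An X-box was in 4 windows (8.89%, against 1.83% of all), and the forkhead site was in 2 (4.44%, against 3.78% of all). The half-site can be part of an X-box, as it is in Dnah2. At least 1 of the 3 was in 17 windows (37.8%, against 16.5%). A match of letters is a description and does not show that a factor binds there. The 8 members of highest level among those named with a match are printed, with matches in capitals, and they are Cfap36 chr14:107192357-107192656 on the minus strand, Cfap20 chr19:9614728-9615027 on the plus strand, Rsph9 chr9:22337431-22337730 on the plus strand, Tekt1 chr10:57479072-57479371 on the minus strand, Cfap74 chr5:171260936-171261235 on the plus strand, Tekt4 chr10:14992034-14992333 on the plus strand, Tekt2 chr5:143907675-143907974 on the minus strand and Hydin chr19:55146216-55146515 on the plus strand.
Cfap36: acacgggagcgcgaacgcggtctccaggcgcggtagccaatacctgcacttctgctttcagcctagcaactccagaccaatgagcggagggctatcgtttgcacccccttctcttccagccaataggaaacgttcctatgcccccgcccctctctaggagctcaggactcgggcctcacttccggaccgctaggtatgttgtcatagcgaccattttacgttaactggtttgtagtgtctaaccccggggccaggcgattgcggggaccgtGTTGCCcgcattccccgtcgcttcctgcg
Cfap20: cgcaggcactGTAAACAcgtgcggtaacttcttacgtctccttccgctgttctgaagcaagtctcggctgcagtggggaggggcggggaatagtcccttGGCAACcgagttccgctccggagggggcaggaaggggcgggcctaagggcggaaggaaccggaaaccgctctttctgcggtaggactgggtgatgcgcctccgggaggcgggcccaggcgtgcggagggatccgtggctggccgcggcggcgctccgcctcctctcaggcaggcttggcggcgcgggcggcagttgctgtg
Rsph9: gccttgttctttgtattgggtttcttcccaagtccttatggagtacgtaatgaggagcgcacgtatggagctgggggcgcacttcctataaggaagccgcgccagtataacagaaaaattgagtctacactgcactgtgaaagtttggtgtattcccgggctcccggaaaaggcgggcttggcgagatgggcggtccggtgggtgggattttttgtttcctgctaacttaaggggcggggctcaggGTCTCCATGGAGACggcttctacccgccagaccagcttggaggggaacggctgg
Tekt1: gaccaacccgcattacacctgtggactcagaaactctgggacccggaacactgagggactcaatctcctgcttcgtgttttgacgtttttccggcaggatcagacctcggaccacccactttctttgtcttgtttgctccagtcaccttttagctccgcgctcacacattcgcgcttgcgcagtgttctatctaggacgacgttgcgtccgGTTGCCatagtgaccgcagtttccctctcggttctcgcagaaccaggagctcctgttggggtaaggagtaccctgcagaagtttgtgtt
Cfap74: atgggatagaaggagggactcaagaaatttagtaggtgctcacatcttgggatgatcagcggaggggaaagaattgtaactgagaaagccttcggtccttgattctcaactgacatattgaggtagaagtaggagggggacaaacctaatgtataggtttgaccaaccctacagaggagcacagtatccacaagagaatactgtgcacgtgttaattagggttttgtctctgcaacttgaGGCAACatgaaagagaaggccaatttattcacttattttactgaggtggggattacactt
Tekt4: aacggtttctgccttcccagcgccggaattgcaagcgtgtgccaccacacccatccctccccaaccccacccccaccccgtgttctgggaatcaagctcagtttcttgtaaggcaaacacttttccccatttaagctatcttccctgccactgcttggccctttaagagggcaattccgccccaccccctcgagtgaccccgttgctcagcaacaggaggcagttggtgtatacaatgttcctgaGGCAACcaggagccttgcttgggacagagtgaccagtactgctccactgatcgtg
Tekt2: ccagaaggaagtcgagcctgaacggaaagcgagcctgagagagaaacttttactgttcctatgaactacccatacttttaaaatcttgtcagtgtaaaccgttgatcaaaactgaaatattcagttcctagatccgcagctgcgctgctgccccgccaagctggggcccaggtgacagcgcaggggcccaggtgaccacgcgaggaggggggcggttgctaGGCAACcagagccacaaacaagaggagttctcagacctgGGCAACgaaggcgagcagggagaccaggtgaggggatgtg
Hydin: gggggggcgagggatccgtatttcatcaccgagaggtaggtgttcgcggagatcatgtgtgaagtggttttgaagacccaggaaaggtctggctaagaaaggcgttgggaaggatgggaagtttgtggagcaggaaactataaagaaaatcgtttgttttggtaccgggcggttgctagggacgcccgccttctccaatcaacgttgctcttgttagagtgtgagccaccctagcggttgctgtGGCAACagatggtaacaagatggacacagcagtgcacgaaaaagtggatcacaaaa
The capitals mark half-sites in all of these except Rsph9, which has an X-box that begins at position 247 of the window, and Cfap20, which has a forkhead site as well as a half-site. In Hydin, Tekt4 and Cfap74 the half-site lies close to the start, and begins at positions 245, 246 and 241. Those of Tekt1 and Cfap36 begin at positions 212 and 272. Tekt2 has more than 1 half-site. Of these 8 genes, the lowest of all 6 rats was SAH + PBS replicate 2 for Cfap20, Rsph9, Tekt1, Cfap74, Tekt4 and Hydin, and another rat for Cfap36 and Tekt2. SAH + PBS replicate 2 was the lowest for 30 of all 54 members and for 35.5% of all genes tested. A link between the sites and low values in that rat was not tested.

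Total counts lay between 62762808 and 66761380 under SAH + 6-gingerol and between 64053899 and 65606360 under SAH + PBS, and depth was thus alike. SAH + PBS replicate 2 stood apart. It had the lowest value of all 6 rats for 35.5% of the 17096 genes tested and the highest for 36.1%. It was the lowest rat for 12 of 14 neuron markers and for 7 of 8 oligodendrocyte markers, and the neutrophil marker S100a9 had 19.0 CPM there, against 0.794 and 1.3 CPM in the remaining SAH + PBS rats and 0.0954 to 0.401 CPM under SAH + 6-gingerol. CPM are counts scaled to library size after TMM normalization, which allows for differences in composition. The tissue is labelled brain, and the neuron marker Snap25 had 1543 to 1801 CPM under SAH + 6-gingerol and 737 to 1276 CPM under SAH + PBS. The main counts below are therefore also given without SAH + PBS replicate 2.

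Most motile cilia genes were at low level in this tissue. On the FPKM scale, which allows for gene length, the 54 members had a median of 0.787 over the 6 rats, and 31 of 54 were under 1. The median of all genes tested was 7.91. That set leaves out genes with too few counts, whereas the 54 members include 3 such genes. Cfap36, whose product binds the small GTPase Arl3 of the primary cilium, was the highest at 81.1 FPKM. Cfap20, a protein of the inner junction of the doublet, followed at 33.1 FPKM, and Tppp3, a tubulin-binding protein, at 23.1 FPKM. Rsph9, a protein of the radial spoke head, had 12.8 FPKM and the ruler protein Ccdc39 had 7.33 FPKM. At the lower end, the central pair genes Spag16 (0.0506 FPKM) and Cfap221 (0.0401 FPKM) and the sequence Cfap58l1 (0.0267 FPKM) had too few counts to be tested, which left 51 members.

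No motile cilia gene differed between the groups at an adjusted p under 0.05 in edgeR, while DESeq2 and limma-voom called 2 and 1. Adjusted p-values of the 51 members in edgeR's quasi-likelihood test, with Benjamini-Hochberg adjustment over all 17096 genes, ran from 0.334 to 0.991, and the test called 3 genes in all (0.0175%). At an unadjusted p under 0.05, 4 members were lower in the SAH + 6-gingerol group (7.84%, against 8.71% of all genes tested) and 0 were higher (against 5.22%). Those 4 were Dnah8, Dnah1, Spag17 and Cfap73, and Cfap73 was named after its values were seen. DESeq2 called 2 members, Dnah8 and Dnah1 (4.28% of all genes were called), and limma-voom with sample quality weights called Dnah8 (0.86% of all). Log2 fold changes were negative for 35 of 51 members (68.6%, against 53.1% of all genes), with a median of -0.19, against -0.03 for all genes. The values of the groups did not overlap for 7 members that were lower (13.7%, against 13.4% of all), namely Dnah8, Dnah1, Spag17, Cfap73, Rsph4a, Cfap45 and Cfap36, and for 2 that were higher in the SAH + 6-gingerol group (3.92%, against 13.8%), Rsph6a and Cfap97. Both shares of lower members are near those of all genes. With 3 rats against 3, an exact two-sided permutation test cannot give a p below 0.1. Groups that do not overlap always give that value, so for these 9 members the test adds nothing to the lack of overlap. In bulk tissue, fewer ciliated cells and less RNA per cell cannot be told apart.

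**Figure D1:**
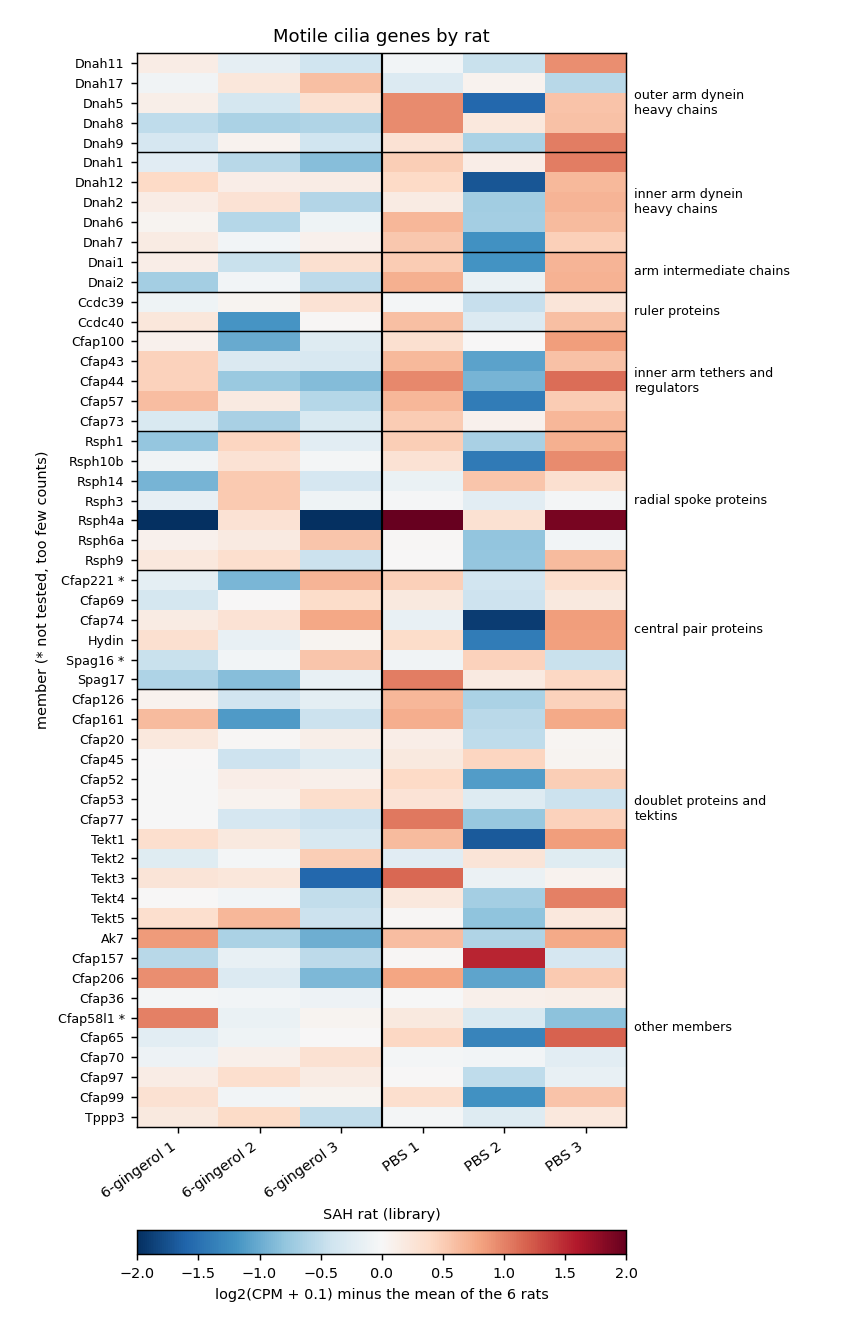
Each row is 1 of the 54 motile cilia genes, grouped by role, and each column is 1 rat, with the SAH + 6-gingerol rats at the left and the SAH + PBS rats at the right. Colour gives log2(CPM + 0.1) minus the mean of the 6 rats for that gene, cut at -2 and 2, and SAH + PBS replicate 2 is the lowest rat in 30 of the 54 rows.

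SAH + PBS replicate 2 had the lowest value of all rats for 30 of 54 members (against 35.5% of all genes), while SAH + PBS replicate 3 had the highest for 22 and replicate 1 for 12. Over all 6 rats, the highest exceeded the lowest by a median of 3.23-fold for the 49 members without a value of 0, against 1.80-fold for all genes tested, whose median level is the higher one given above. The geometric mean over the 54 members was 2.72, 2.5 and 2.39 CPM under SAH + 6-gingerol, against 3.61, 1.86 and 3.75 CPM in SAH + PBS replicates 1, 2 and 3. The SAH + 6-gingerol rats thus lay close together, and the SAH + PBS rats lay on both sides of them, with means of 2.54 ± 0.171 CPM and 3.07 ± 1.05 CPM (SD, n = 3 each) and a ratio of 0.825. Without SAH + PBS replicate 2, which was chosen for a closer look after values were seen, 16 of 52 members tested were lower in the SAH + 6-gingerol group at an unadjusted p under 0.05 (30.8%, against 7.53% of all genes) and 1, Dnah17, was higher (against 8.02%). The median log2 fold change was then -0.59, and 42 of 52 members were negative (80.8%, against 52.1%). Even so, 0 members reached an adjusted p under 0.05 in edgeR, the smallest being 0.0729 for Dnah8, while 91 genes did (0.524%). With that rat left out, the groups did not overlap, the SAH + PBS rats being above, for 29 of the 51 members (56.9%, against 17.2% of all genes). Without SAH + PBS replicate 3 the median was 0.0323 and 26 of 52 members were negative (against 52% of all).

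The heavy chains of the outer arm, the motors that give most of the force, were led by Dnah9. It had 18.5, 24.3 and 17.5 CPM under SAH + 6-gingerol, against 28.5, 14.9 and 47.3 CPM under SAH + PBS. SAH + PBS replicate 2 was below every SAH + 6-gingerol rat and the other SAH + PBS rats were above them all. Its log2 fold change was -0.59 ± 0.40 (SE; edgeR adjusted p = 0.474), and -0.91 ± 0.24 without SAH + PBS replicate 2 (adjusted p = 0.175). Dnah8, a heavy chain best known from sperm tails in human and mouse, was the member with the smallest p. It had 1.64, 1.49 and 1.52 CPM under SAH + 6-gingerol, against 4.63, 2.76 and 3.61 CPM under SAH + PBS, so the groups did not overlap. The log2 fold change was -1.24 ± 0.27 (edgeR adjusted p = 0.334), and the adjusted p was 0.0038 in DESeq2 and 0.0398 in limma-voom with sample quality weights. On Rnor_6.0, the build of the files, Dnah8 lies at chr20:9313271-9560682 and Dnah9 at chr10:52351192-52710862. Dnah5 had 1.68, 1.18 and 1.92 CPM under SAH + 6-gingerol, against 3.06, 0.450 and 2.33 CPM under SAH + PBS, and again SAH + PBS replicate 2 was below and the others of its group above every SAH + 6-gingerol rat. Dnah11 also had its highest value in SAH + PBS replicate 3, at 9.32 CPM, against 3.66 to 5.37 CPM under SAH + 6-gingerol. Dnah17, which overlaps Pgs1 on the other strand, ran the other way, with 2.97, 3.65 and 4.78 CPM under SAH + 6-gingerol, against 2.56, 3.28 and 2.08 CPM under SAH + PBS.

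Among the inner arm heavy chains, which shape the bend, Dnah1 was the one whose groups did not overlap. It had 3.35, 2.64 and 2.14 CPM under SAH + 6-gingerol, against 5.56, 4.33 and 8.14 CPM under SAH + PBS. Its log2 fold change was -1.15 ± 0.32 (edgeR adjusted p = 0.343; DESeq2 adjusted p = 0.0322). Dnah12 had 9.79, 8.17 and 8.22 CPM under SAH + 6-gingerol, against 9.81, 2.21 and 11.7 CPM under SAH + PBS. Here only SAH + PBS replicate 2 was far from the rest, at 0.205 of the mean of SAH + PBS replicates 1 and 3, and the log2 fold change was 0.14 ± 0.56, or -0.30 ± 0.16 without it. Dnah6, Dnah2 and Dnah7 likewise had their lowest value in that rat, and their log2 fold changes were -0.51, -0.15 and -0.05. Of the intermediate chains, which hold the outer arm together, Dnai1 had its lowest value, 0.711 CPM, in SAH + PBS replicate 2. Dnai2 did not, with 0.286, 0.497 and 0.334 CPM under SAH + 6-gingerol, against 0.912, 0.465 and 0.909 CPM under SAH + PBS.

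**Figure D2:**
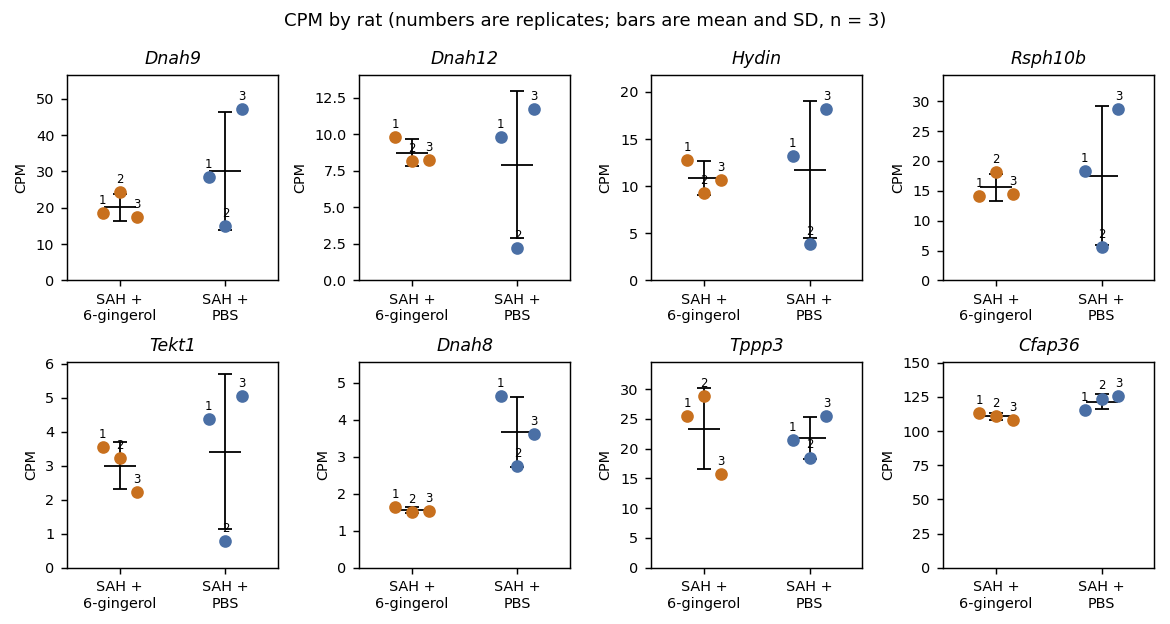
CPM of 8 motile cilia genes in each rat, with the SAH + 6-gingerol group at the left of each panel and the SAH + PBS group at the right; numbers are replicates, and bars give the mean and SD (n = 3). In Dnah9, Dnah12, Hydin, Rsph10b and Tekt1 the point of SAH + PBS replicate 2 is below all the others, and in Dnah8 the groups do not overlap, from 1.49 to 1.64 CPM against 2.76 to 4.63 CPM.

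The ruler proteins Ccdc39 and Ccdc40 set the repeat along the doublet on which inner arms and spokes are placed. Ccdc39 had 27.8, 30.7 and 36.1 CPM under SAH + 6-gingerol, against 28.7, 21.4 and 35 CPM under SAH + PBS, so the groups overlapped widely. Its log2 fold change was 0.15 ± 0.21 (adjusted p = 0.71). Ccdc40 had a value of -0.58 ± 0.48 (adjusted p = 0.541). The 5 tethers and regulators of the inner arms, known as such mainly from algae and protozoa, were all negative (against 53.1% of all genes). Their median was -0.83, or -1.01 without SAH + PBS replicate 2. The values of Cfap43 and Cfap57 were smaller than their SE of 0.50 and 0.63. Cfap44 had 3.54, 1.48 and 1.35 CPM under SAH + 6-gingerol, against 5.05, 1.29 and 5.65 CPM under SAH + PBS, and Cfap43, Cfap57, Cfap73 and Cfap100 had log2 fold changes of -0.24, -0.01, -1.07 and -0.83. Of these, the groups did not overlap for Cfap73 alone, at 0.202 to 0.286 CPM under SAH + 6-gingerol, against 0.407 to 0.651 CPM under SAH + PBS. Among these 5 genes, Cfap43, Cfap44, Cfap57 and Cfap100 are named after their values were seen, as is Cfap73.

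Radial spokes carry signals from the central pair to the arms. Rsph10b had 14.2, 18.1 and 14.4 CPM under SAH + 6-gingerol, against 18.3, 5.53 and 28.7 CPM under SAH + PBS. SAH + PBS replicate 2 was again below every other rat, and the log2 fold change was -0.17 ± 0.53, or -0.59 ± 0.22 without it. Rsph1, a spoke head protein, had 2.86, 6.71 and 4.30 CPM under SAH + 6-gingerol, against 7.02, 3.14 and 8.24 CPM under SAH + PBS. Rsph4a, another spoke head protein, had the largest fitted difference of all members, and it rested on few reads. Its counts were 0, 32 and 0 under SAH + 6-gingerol, against 137, 35 and 114 under SAH + PBS, and its log2 fold change was -3.07 ± 1.54 (adjusted p = 0.392). A count of 0 allows up to 3 reads, from counting error alone, and SAH + 6-gingerol replicate 2 and SAH + PBS replicate 2 were almost equal. Rsph6a, the spoke head protein of sperm in mouse, had the most positive value, 0.53 ± 0.32 (adjusted p = 0.438), with 2.54, 2.73 and 3.56 CPM under SAH + 6-gingerol, against 2.46, 1.35 and 2.32 CPM under SAH + PBS. Rsph3 of the stalk was at 0.22 ± 0.26, and Rsph14, which overlaps Gnaz on the other strand, at -0.47 ± 0.57. Rsph9 was at 0.01 ± 0.39. It overlaps Mrps18a on the other strand, and since the strand setting of the counting is not given in the sources used here, reads of the 2 genes cannot be told apart.

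Hydin, a very large protein of the central pair whose loss in mouse causes hydrocephalus, had 12.8, 9.23 and 10.6 CPM under SAH + 6-gingerol, against 13.3, 3.83 and 18.2 CPM under SAH + PBS. The means were 10.9 ± 1.79 CPM against 11.8 ± 7.30 CPM (SD, n = 3 each). Its log2 fold change was -0.11 ± 0.52 (adjusted p = 0.919), -0.53 ± 0.20 without SAH + PBS replicate 2 and 0.35 without SAH + PBS replicate 3, so the sign depended on 1 rat. Cfap74 spanned the widest range of the members without a value of 0, 7.78-fold, with 2.46, 2.67 and 3.78 CPM under SAH + 6-gingerol, against 1.96, 0.508 and 3.95 CPM under SAH + PBS. Cfap69 had 12.6, 16.3 and 21.0 CPM under SAH + 6-gingerol, against 18.4, 12.1 and 18.5 CPM under SAH + PBS, and overlapped between groups. Spag17, of the same structure, had 0.381, 0.311 and 0.568 CPM under SAH + 6-gingerol, against 1.41, 0.740 and 0.894 CPM under SAH + PBS. These groups did not overlap, at a level of about 0.106 FPKM, and the log2 fold change was -1.27 ± 0.44 (edgeR adjusted p = 0.347).

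In the doublet wall, tektins form filaments inside the microtubules. Tekt1 had 3.54, 3.21 and 2.22 CPM under SAH + 6-gingerol, against 4.38, 0.799 and 5.05 CPM under SAH + PBS. The log2 fold change was -0.19 ± 0.64, and -0.65 ± 0.26 without SAH + PBS replicate 2. Tekt4 followed the same order of rats, with 0.784 CPM in SAH + PBS replicate 2, against 0.903 to 1.32 CPM under SAH + 6-gingerol and 1.54 and 2.74 CPM in the remaining SAH + PBS rats. Tekt2 did not, with 1.51 CPM in SAH + PBS replicate 2 and 1.03 to 1.79 CPM under SAH + 6-gingerol, against 1.04 and 1.03 CPM in the remaining SAH + PBS rats. Tekt5, which is best known from sperm tails in rat and mouse, had a log2 fold change of 0.40 ± 0.40, and Tekt3 had at most 0.559 CPM in any rat. Cfap126, which helps to place basal bodies in ciliated cells in mouse, had 4.12, 3.0 and 3.43 CPM under SAH + 6-gingerol, against 6.28, 2.5 and 5.45 CPM under SAH + PBS. Its log2 fold change was -0.43 ± 0.37, and -0.74 ± 0.21 without SAH + PBS replicate 2 (edgeR adjusted p = 0.189). Cfap20 had 44.6, 39.2 and 42.2 CPM under SAH + 6-gingerol, against 42.3, 27.2 and 39.8 CPM under SAH + PBS, and again only SAH + PBS replicate 2 was away from the others. The other doublet proteins, Cfap45, Cfap52, Cfap53, Cfap77 and Cfap161, had log2 fold changes from -0.70 in Cfap77 to 0.26 in Cfap53.

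**Figure D3:**
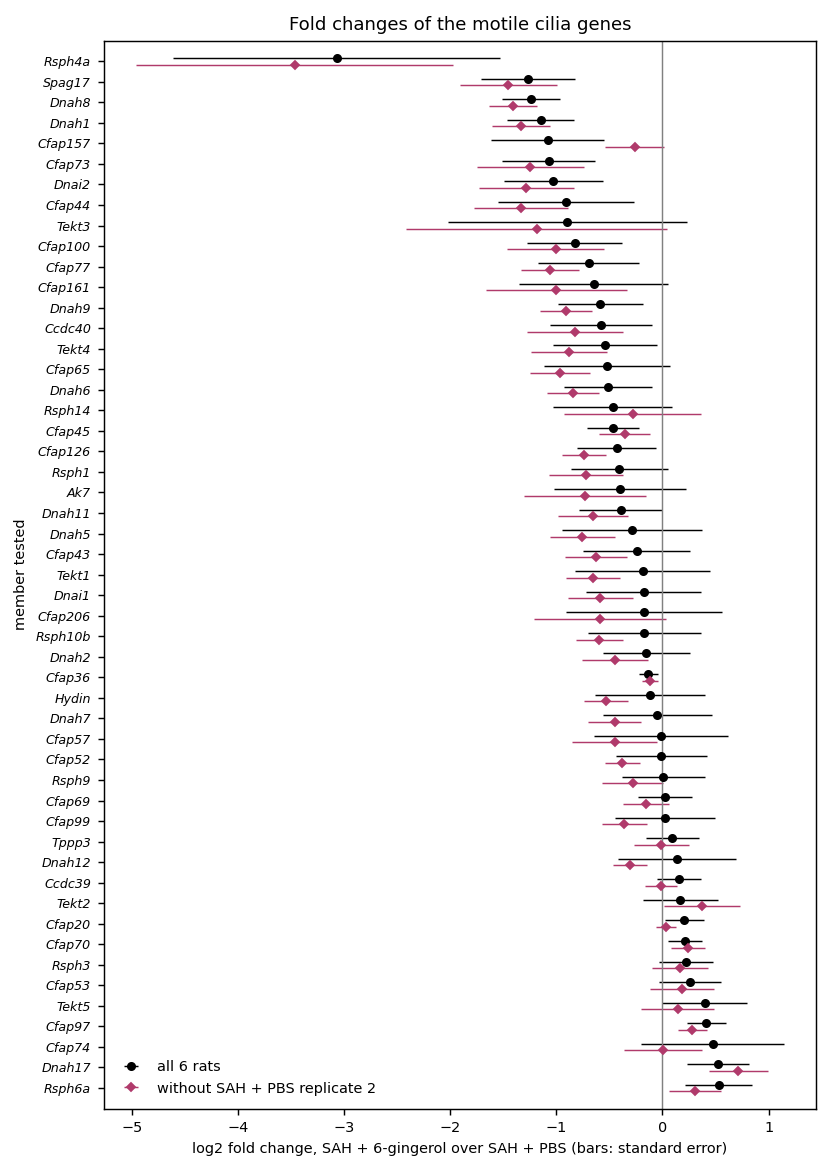
Log2 fold change of SAH + 6-gingerol over SAH + PBS for the 51 members tested, with standard errors from edgeR, in all 6 rats (circles) and without SAH + PBS replicate 2 (diamonds). Leaving that rat out moves the median of the members tested to -0.59 from -0.19, and of the 51 Rsph4a is the most negative and Rsph6a the most positive in all rats.

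Of the 10 remaining members, 4 were lowest in SAH + PBS replicate 2 (against 35.5% of all genes tested). Cfap36, the highest of all, was the steadiest, with 113, 111 and 108 CPM under SAH + 6-gingerol, against 115, 124 and 126 CPM under SAH + PBS. The groups did not overlap, yet the highest rat was only 1.16 times the lowest, and the log2 fold change was -0.13 ± 0.09 (adjusted p = 0.462). Tppp3 had 25.4, 28.8 and 15.7 CPM under SAH + 6-gingerol, against 21.5, 18.5 and 25.6 CPM under SAH + PBS, with full overlap. Cfap97 was higher in every SAH + 6-gingerol rat, at 11.9, 13.5 and 12 CPM, against 10.8, 7.54 and 9.73 CPM under SAH + PBS, with a log2 fold change of 0.41 ± 0.18 (adjusted p = 0.368). Cfap70 was at 0.21 ± 0.16, and Cfap65, Cfap206 and Cfap99 had log2 fold changes of -0.52, -0.18 and 0.02, or -0.97, -0.59 and -0.36 without SAH + PBS replicate 2, so that the sign of Cfap99 turned. Ak7, an adenylate kinase of motile cilia, had 3.94, 1.34 and 1.04 CPM under SAH + 6-gingerol, against 3.31, 1.36 and 3.67 CPM under SAH + PBS, and differed more within each group than between them. The members with their highest value in SAH + PBS replicate 2 were 3 of 54 (against 36.1% of all genes tested), namely Cfap157, Cfap45 and Rsph14.

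As a description, the members of low level had the more negative fold changes. The 31 members with a mean under 1 FPKM, of which 28 were tested, had a median log2 fold change of -0.49. Of the 28, 25 were negative (against 53.1% of all genes). The 23 at 1 FPKM or more had a median of 0.02, with 10 negative. With SAH + PBS replicate 2 left out, the medians were -0.76 (27 of 29 negative, against 52.1% of all genes) and -0.15 (15 of 23). The sign of the second thus rested on 1 rat. SAH + PBS replicate 2 was nevertheless the lowest rat for 16 of these 23 (against 35.5% of all genes tested). Other genes of low level were not set beside these members, so whether the split is particular to them was not tested. By role, medians were -0.40 for outer arm heavy chains, -0.15 for inner arm heavy chains, -0.17 for radial spoke proteins, -0.05 for central pair proteins and -0.31 for doublet proteins and tektins. Without SAH + PBS replicate 2 they were -0.76, -0.45, -0.28, -0.53 and -0.52 in the same order.

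A further list held 89 other genes of motile cilia that were in the table. Of 86 tested, 4 were lower (against 8.71% of all genes) and 1 was higher (against 5.22%) at an unadjusted p under 0.05, 59 were negative (against 53.1%), and the median was -0.24. SAH + PBS replicate 2 was the lowest rat for 42 of them (against 35.5% of all genes tested). Without that rat, 14 were lower (against 7.53%), 2 were higher (against 8.02%) and the median was -0.45. Their 4 highest genes, Cetn2, Dnal1, Ccdc65 and Spef1, had log2 fold changes of 0.31, 0.39, 0.24 and -0.17. Of 17 tested regulators of multiciliation, 3 were lower and 0 higher at an unadjusted p under 0.05 (against the same 8.71% and 5.22%), and the median was -0.12. Without SAH + PBS replicate 2, 2 were lower (against 7.53%), 1 was higher (against 8.02%) and the median was -0.38. The RFX factor Rfx3 had 33.2, 40.4 and 31.7 CPM under SAH + 6-gingerol, against 27.3, 9.63 and 33.6 CPM under SAH + PBS, and Rfx2 had 5.02, 6.10 and 5.05 CPM against 5.58, 6.27 and 10.3 CPM. Rfx3 was thus lowest in SAH + PBS replicate 2, and Rfx2 was not. That rat was the lowest for 8 of the 17 regulators tested (against 35.5% of all genes tested). It was the highest for 6 of the 19 regulators in the table (against 34.1% of all genes with a count). The 55 genes of intraflagellar transport and the primary cilium, which neurons and glia carry too, had a median of 0.10. Of them, 3 were lower (against 8.71%) and 2 higher (against 5.22%). SAH + PBS replicate 2 was the lowest rat for 37 of the 55 (against 35.5% of all genes tested). Without that rat their median was -0.0214, again with 3 lower and 2 higher (against 7.53% and 8.02%). The sign of this median thus rested on 1 rat. The 21 ependymal markers that are not ciliary had a median of -0.35, with 4 lower (against 8.71%) and 0 higher (against 5.22%). Without SAH + PBS replicate 2 that median was -0.17, with 3 lower and 2 higher (against 7.53% and 8.02%). Their geometric mean was 50.2, 43.8 and 44.5 CPM under SAH + 6-gingerol, against 54.7, 61.0 and 60.8 CPM under SAH + PBS. Of the 21, 7 were lowest in SAH + PBS replicate 2 (against 35.5% of all genes tested) and 7 highest there (against 36.1%). Aqp4, Gja1 and Sox9 of this list also mark astrocytes, and how far the other markers are particular to ependyma was not tested.

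**Figure D4:**
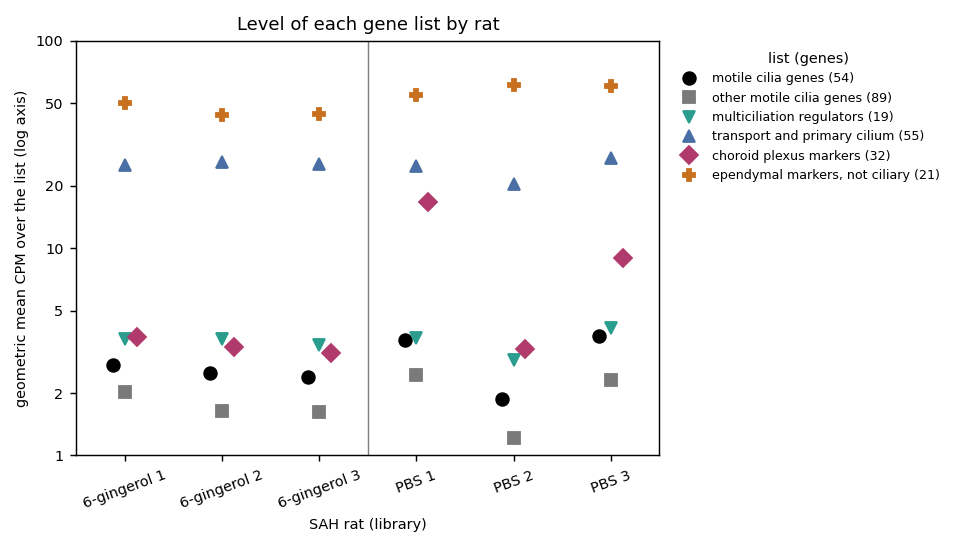
Geometric mean CPM (log axis) of 6 gene lists in each rat, with the SAH + 6-gingerol rats at the left, taken over log2(CPM + 0.1) of the genes in the table. The motile cilia genes are at 2.39 to 2.72 CPM under SAH + 6-gingerol and at 3.61, 1.86 and 3.75 CPM under SAH + PBS, and the choroid plexus markers are high in SAH + PBS replicates 1 and 3 only.

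Markers of the choroid plexus were high in SAH + PBS replicates 1 and 3, while 12 of 31 were lowest in SAH + PBS replicate 2 (against 35.5% of all genes tested). Their geometric mean over 32 genes was 3.74, 3.33 and 3.11 CPM under SAH + 6-gingerol, against 16.8, 3.26 and 8.99 CPM under SAH + PBS, and their summed level was 492 to 607 CPM against 1978, 400.1 and 955 CPM. The carrier Ttr had 3.51, 0.435 and 0.602 CPM under SAH + 6-gingerol, against 1048, 0.610 and 300.4 CPM under SAH + PBS. Ttr was thus abundant in SAH + PBS replicates 1 and 3 and at most 3.51 CPM in the other 4 rats. Otx2, a factor that defines this epithelium, was at 0 counts in every rat but SAH + PBS replicate 1 (1.07 CPM). Of 31 markers tested, 15 were lower (against 8.71% of all genes) and 1 was higher (against 5.22%) at an unadjusted p under 0.05, with a median of -1.37. Without SAH + PBS replicate 2, 21 were lower (against 7.53%), 3 were higher (against 8.02%) and the median was -1.51. The part of choroid plexus tissue in the values of the motile cilia genes was not tested.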

How the data were processed

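Libraries of total RNA from 6 rats were sequenced by the authors, who deposited counts and FPKM for 22396 genes on Rnor_6.0. The submitters' notes name HISAT2 2.1.0, StringTie 1.3.3b and limma 3.32.10, whereas STAR and DESeq2 are named in the paper. How reads were counted, and whether by strand, is left unstated by those sources. The deposited FPKM equal counts over 1 length per gene and the total, to within 0.0164%. Groups come from the sample titles; the columns call the SAH + 6-gingerol libraries Control.

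Counts were tested with edgeR 4.0.16 in R 4.3.3 (filterByExpr, TMM, glmQLFit and glmQLFTest, Benjamini-Hochberg over 17096 genes); an SE is the log2 fold change over the square root of F. Geometric means use a pseudocount of 0.1 CPM. The alternatives, among them DESeq2 1.42.0 and limma 3.58.1, are listed in the closing section, and the fits were tested on simulated data.

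Members, lists and roles were chosen with earlier results of these data known. Genes named are the 8 listed by name, the 6 highest by FPKM in each family and its extremes, and the 4 highest of a list; all others, such as Rfx2, Rfx3, Otx2, S100a9, Snap25, Dnah5, Cfap44 and Cfap73, were chosen after their values were seen. Promoters were read from RefSeq on GRCr8, whose coordinates differ from Rnor_6.0. Libraries are separate rats, and p-values measure the spread between them.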

Additional observations from a re-analysis of the deposited data

How the results depend on the processing

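Over 16 alternatives, 30 of 51 members tested kept the sign of their log2 fold change, 13 changed it in an alternative other than leaving out a rat, and 21 on leaving out a rat. Members at an adjusted p under 0.05 numbered 0 in edgeR and in every setting except DESeq2 (2, with 3 members lower and 1 higher at an unadjusted p under 0.05) and limma-voom with sample quality weights (1). The number lower at an unadjusted p under 0.05 was 4 of 51 (8.71% of all genes), and became 11 of 51 in limma-voom with sample quality weights (12.3% of all genes), 2 of 32 with at least 1 CPM in every rat (9.11%), 2 of 37 in limma on log2(FPKM + 1) (11.5%), 2 of 37 on log2(FPKM + 0.1) (12.1%), 8 of 54 on log2(FPKM + 1) without a filter (8.91%) and 2 of 51 with the replicate block (5.57%). On leaving out each rat in turn it ran from 2 to 16 (4.11% to 14.9% of all genes), the highest without SAH + PBS replicate 2 (7.53%) and the lowest without SAH + 6-gingerol replicate 1 (4.46%) or SAH + PBS replicate 1 (9.04%); the number higher, 0, was then 0 to 1. The median log2 fold change of -0.19 (all genes -0.03) became -0.29 with library totals (all genes -0.15), -0.42 in limma-voom with sample quality weights (-0.01) and -0.10 with the replicate block (-0.02). In the same 3 FPKM fits it was -0.068, -0.059 and -0.0826, against -0.10, -0.12 and -0.06 for all genes, so that with a filter the members lay above all genes. On leaving out each rat it ran from -0.59 (without SAH + PBS replicate 2) to 0.0323 (without SAH + PBS replicate 3), so its sign rested on 1 rat. Deviations of same-numbered rats from their group means correlated at -0.0506, -0.00437 and -0.0228. With 3 rats a group, such values cannot show whether same-numbered rats were handled together, and the labels used here give no pairing. The replicate block called 0 genes, against 3 in the main fit.

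Under library totals, limma-voom with sample quality weights and the 3 FPKM fits (pseudocounts 1 and 0.1, and 1 without a filter), Cfap69 was at -0.0931, -0.18, -0.0837, -0.0994 and -0.0837, and Rsph9 at -0.0966, -0.0204, -0.0364, -0.0349 and -0.0364, and at -0.00753 with at least 1 CPM in every rat. Tppp3 was at -0.0201 with library totals and at -0.0551, -0.059 and -0.0551 in the FPKM fits, and Cfap99 at -0.0802 with library totals. In limma-voom with sample quality weights Cfap99 was at -0.22 and Dnah12 at -0.13, and on log2(FPKM + 0.1) Tekt1 was at 0.0252, Cfap52 at 0.029 and Cfap57 at 0.00698. With the replicate block, Dnai1 was at 0.00464, Hydin at 0.13, Rsph10b at 0.0783, Tekt1 at 0.11, Cfap52 at 0.14, Cfap57 at 0.16, Dnah5 at 0.0451 and Dnah7 at 0.15. On leaving out each rat in turn the ranges were -0.0125 to 0.33 (Ccdc39), -0.95 to 0.21 (Cfap206), -0.63 to 0.0204 (Cfap43), -0.38 to 0.25 (Cfap52), -0.45 to 0.33 (Cfap57), -0.97 to 0.12 (Cfap65), -0.18 to 0.19 (Cfap69), -0.36 to 0.36 (Cfap99), -0.66 to 0.11 (Dnah11), -0.30 to 0.54 (Dnah12), -0.45 to 0.21 (Dnah2), -0.76 to 0.20 (Dnah5), -0.45 to 0.23 (Dnah7), -0.59 to 0.15 (Dnai1), -0.53 to 0.35 (Hydin), -0.59 to 0.39 (Rsph10b), -0.0311 to 0.35 (Rsph3), -0.28 to 0.41 (Rsph9), -0.65 to 0.21 (Tekt1), -0.0874 to 0.37 (Tekt2) and -0.0851 to 0.31 (Tppp3). The cause of these changes was not tested beyond the rat or setting named. The geometric mean ratio of the groups, 0.825, was 0.793 in FPKM and 0.996 over members of at least 1 FPKM; without SAH + PBS replicate 2 these were 0.689, 0.676 and 0.850.

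With 3 rats a group and a median SE of 0.448, differences within the error bars of single members were not detectable, and 31 of 54 members are under 1 FPKM. Reads of members that overlap a gene on the other strand, Rsph9, Dnah17, Dnah11, Rsph14 and Tppp3 among them, cannot be told apart from those of that gene. Foxj1 was not analysed here.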

Other observations

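Markers of other regions and cells also differed between the libraries. The 9 markers of the striatum all had positive log2 fold changes (median 0.98). Of them, 7 were higher in the SAH + 6-gingerol group at an unadjusted p under 0.05 in edgeR (against 5.22% of all genes). Without SAH + PBS replicate 2, 6 were higher (against 8.02%), with a median of 0.88. Their geometric mean was 56.0, 25.6 and 38.4 CPM in the SAH + 6-gingerol rats, against 20.8, 20.9 and 20.8 CPM in the SAH + PBS rats. SAH + 6-gingerol replicate 1 was thus the highest, and these means did not overlap. By gene, the groups did not overlap for 3 of the 9 (against 13.8% of all genes), and SAH + 6-gingerol replicate 2 was the lowest rat for 2. The 14 neuron markers were all positive as well, with a median of 0.57 and 6 higher (against 5.22%). Without SAH + PBS replicate 2 their median was 0.38, with 8 higher (against 8.02%). The leptomeninges markers were highest in SAH + PBS replicate 2 for 7 of 10 (against 36.1% of all genes tested). They were lowest in SAH + PBS replicate 1 for 7 of 10 (against 9.29%). Their geometric mean was 61.8, 57.0 and 44.6 CPM in the SAH + 6-gingerol rats, against 32.8, 93.5 and 59.5 CPM in the SAH + PBS rats. Red cell markers were highest in SAH + PBS replicate 2 for 4 of 6 (against 36.1%), and cortex markers were lowest there for 5 of 6 (against 35.5%). The part of these cells in the values of the motile cilia genes was not tested.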
